A study of Mus musculus with 19 samples.

Results

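The genes described here are 10 members of the Wnt pathway, picked by symbol from the 53558 genes that the files list. They are the ligands Wnt5a, Wnt7b, Wnt4 and Wnt3a, the ligand-modifying enzyme Porcn, the receptors Ror1, Ror2, Lgr4 and Lgr5, and the response gene Axin2. Of the 10, 8 passed the filter on low counts and were among the 13986 genes tested, while Wnt3a and Ror2 did not pass. The RNA came from 19 libraries of cells sorted from lung tumors of mice that carry R26LSL-tdTomato and H11LSL-Cas9, in which Cre switches on a red fluorophore and Cas9 in the same transduced cell, beside a further Cre-dependent allele that all 3 groups share. Tumors were started by lentivirus instilled through the trachea and grew for 17 weeks, in mice of mixed C57BL/6J:129 background that were 6 to 12 weeks old at initiation. The sgInert group (7 libraries, 3 female and 4 male) received Lenti-sgNeo1/sgNT1/sgNeo2/Cre, whose 3 sgRNAs are inert controls. The sgCebpa/b/d group (7 libraries, 4 female and 3 male) received Lenti-sgCebpa/sgCebpb/sgCebpd/Cre, with 1 sgRNA against each of 3 C/EBP transcription factor genes. The sgLkb1 group (5 libraries, all female) received Lenti-sgLkb1/Cre, with 1 sgRNA against Stk11, the gene of the kinase LKB1. The comparison sets tumors in which C/EBP factors were targeted beside tumors in which LKB1 was targeted.

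Wnt proteins are secreted lipid-modified ligands. Porcupine, the product of Porcn, attaches the lipid in the endoplasmic reticulum, and the carrier Wls takes the ligand to the cell surface. In the canonical branch, binding to Frizzled and LRP receptors stabilises beta-catenin, which acts with TCF/LEF factors on response genes such as Axin2, itself a scaffold of the complex that degrades beta-catenin. Lgr4, Lgr5 and Lgr6 bind R-spondins and thereby keep Frizzled at the membrane. Wnt5a is best known for the non-canonical branch through Ror1 and Ror2, and in the lung Wnt7b is an epithelial ligand while Wnt signalling, often from nearby fibroblasts, maintains alveolar type II (AT2) cells.

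The libraries held 2760722 to 9944131 expected counts each. Stk11 was between 19.5 and 22.9 CPM (counts scaled to library size with TMM factors) in the sgInert libraries and between 7.53 and 12.5 CPM in the sgLkb1 libraries, without overlap (log2 fold change -1.24, SE 0.17, edgeR adjusted p = 1.07e-04). Over the 7 libraries labelled sgCebpa/b/d none of the targeted transcripts fell. Cebpa was 71.9 to 125 CPM against 42.7 to 68.8 CPM in sgInert (log2 fold change 0.73, SE 0.14, edgeR adjusted p = 0.00148), Cebpb differed by 1.16 (SE 0.37, edgeR adjusted p = 0.0524) and Cebpd by 0.20 (SE 0.28, edgeR adjusted p = 0.742) on the log2 scale. Cebpb and Cebpd differed by the number in the library title (described next). Cebpb was 15.8 to 23.6 CPM in the 3 sgCebpa/b/d libraries with no animal number, against 3.98 to 5.11 CPM in the 4 with an MT number and 3.06 to 6.58 CPM in sgInert. Cebpd was 152 to 166 CPM in the former and 55.0 to 80.9 CPM in the latter, which lay wholly below the MT libraries of sgInert at 111 to 122 CPM. Small insertions and deletions made by Cas9 need not lower a transcript, so these levels do not check the label, and sgCebpa/b/d stands below for the libraries so labelled in every direction that is given. Titles divide the libraries further. In the sgInert group 4 carry a ZR number and 3 an MT number, in the sgCebpa/b/d group 4 carry an MT number and 3 no number, and in the sgLkb1 group 3 carry an MT number and 2 no number. The MT libraries of each group came from 2 animals, so that some of them share an animal. By their titles, sgCebpa/b/d replicates 1, 3 and 4 came from 1 animal, sgInert replicates 2 and 5 from another, and sgLkb1 replicates 2 and 3 from another. The study describes the cells of these libraries as sorted neoplastic cells. The sorting notes for these libraries name a gate against CD45, CD31, F4/80 and Ter119, which by itself does not remove fibroblasts. Neoplastic cells of another experiment in the study were sorted for tdTomato, which would remove untransduced fibroblasts, and whether that gate was also set here is not given in the sources used. AT2 markers were abundant in every library (summed level of 7 markers 31333 to 68018 TPM, RSEM's length-corrected share of a library's transcripts). In such bulk samples a smaller share of cells of one kind and less RNA per cell cannot be told apart.

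Against sgInert, Wnt5a and Porcn rose and Wnt7b and Axin2 fell in the sgCebpa/b/d tumors, so that 4 of the 8 tested members were called. A call takes an adjusted p under 0.05 and a log2 fold change beyond 1 in either direction. Over all genes tested, 2.65% were called higher and 2.00% lower, 4.65% in all. In the sgLkb1 tumors Wnt5a and Porcn rose and Lgr4 fell, 3 of 8 members, where 1.87% of all genes were called higher and 1.14% lower, 3.01% in all. The 2 comparisons share the 7 sgInert libraries. The count of 4 in sgCebpa/b/d was 2 (Wnt5a and Wnt7b) without the 5 libraries with no animal number. The count of 3 in sgLkb1 was 1 without sgInert replicate 4 or 6 or sgLkb1 replicate 2, 3 or 4 (Wnt5a in each case), and 0 without sgLkb1 replicate 5 or with the libraries of each animal summed. Between sgCebpa/b/d and sgLkb1, 0 of the 8 members were called by edgeR, against 2.80% of all genes, while 3 members had an unadjusted p under 0.05 and DESeq2 called 1 member, Wnt7b. Of all 13986 genes tested, 2557 had an unadjusted edgeR p under 0.05 in that comparison. Against sgInert there were 3251 in sgCebpa/b/d and 2589 in sgLkb1. Counts of unadjusted p given below are to be read beside these.

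**Figure D1:**
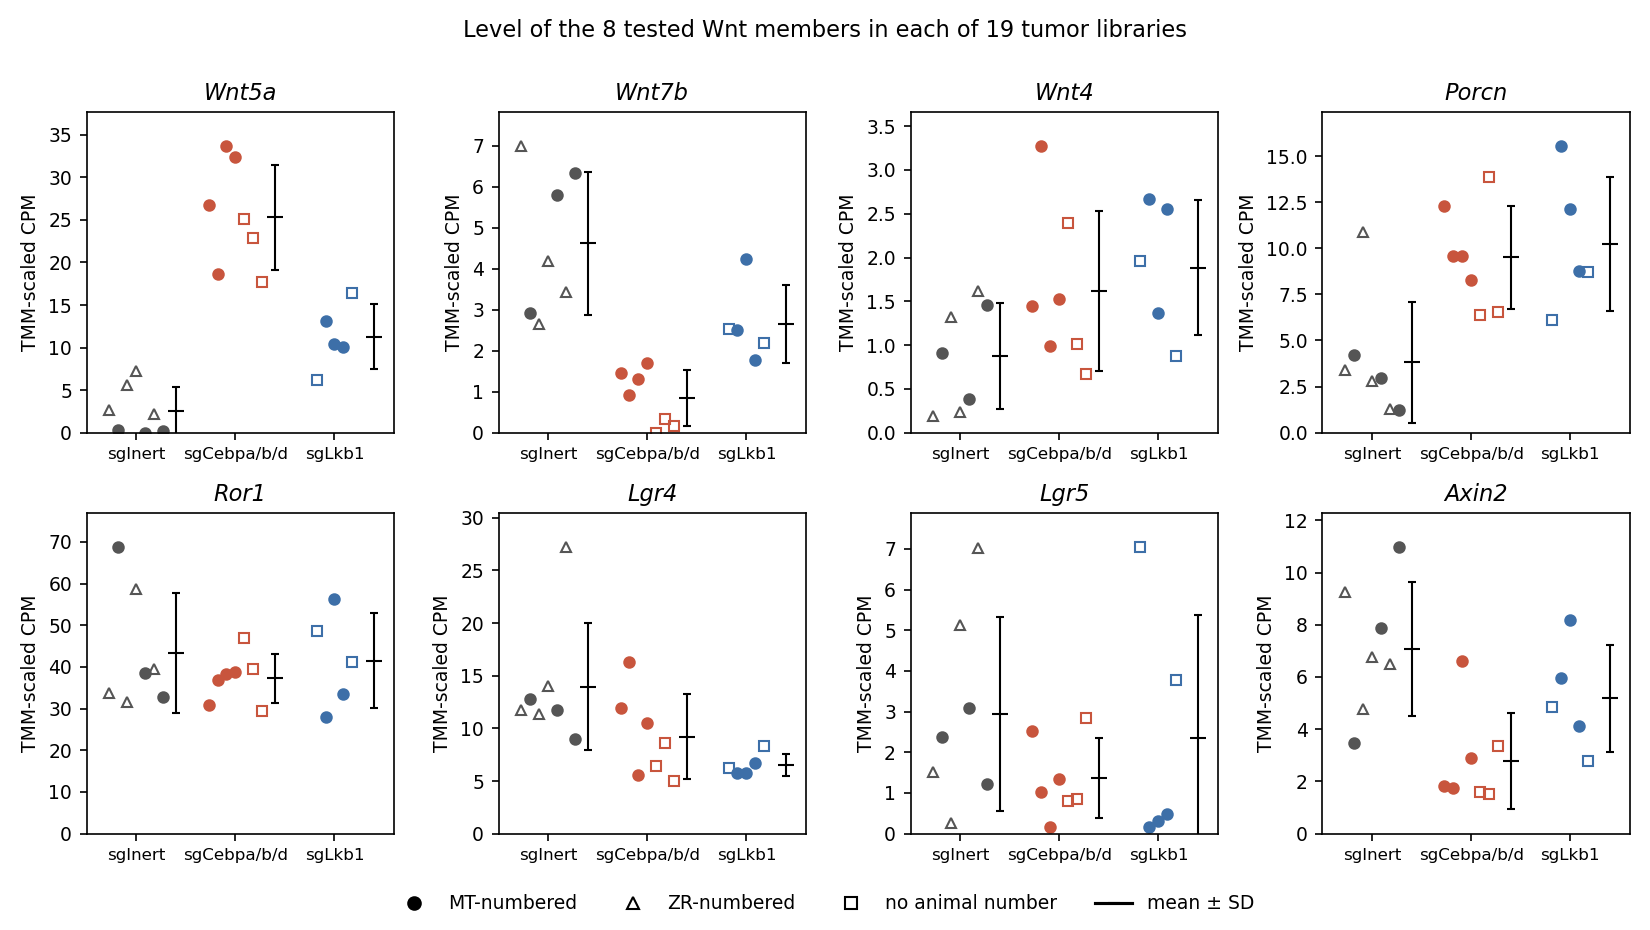
TMM-scaled CPM (y axis, linear, from 0, own scale in each panel) of the 8 tested members in each library, by virus group (x axis). Symbols give the number series in the library title, and the bar beside each group is the mean ± SD (n = 7, 7 and 5), cut off at 0 where it would run below. Wnt5a lies between 17.7 and 33.6 CPM in sgCebpa/b/d, above every other library, and Wnt7b at most 1.69 CPM in sgCebpa/b/d, below every other library.

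Of the ligands, Wnt5a moved furthest. The sgInert libraries held 0 to 31 Wnt5a counts, with a median of 12, and the sgCebpa/b/d libraries held 74 to 204, with a median of 157. The 5 sgLkb1 libraries held 54, 84, 69, 102 and 113. Scaled to library size, sgCebpa/b/d lay between 17.7 and 33.6 CPM, wholly above sgInert with 0.00 to 7.22 CPM, and sgLkb1 lay in between at 6.23, 13.2, 10.5, 10.03 and 16.5 CPM, where its lowest library overlapped the highest sgInert library. The log2 fold change against sgInert was 3.35 (SE 0.54, edgeR adjusted p = 2.41e-04) in sgCebpa/b/d, which is 10.2-fold, and 2.18 (SE 0.56, edgeR adjusted p = 0.0227) in sgLkb1, which is 4.53-fold. Among all genes tested, 1.28% had every sgCebpa/b/d library above every sgInert library.

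The sgInert libraries were not alike in Wnt5a. The 4 ZR libraries held 12 to 31 counts and the 3 MT libraries 0 to 2. Summed over the MT libraries alone, there were 651 Wnt5a counts in sgCebpa/b/d and 255 in sgLkb1 against 3 in sgInert, ratios of 154 and 63.7 per library size. The 95% intervals of these ratios, 52.3 to 746 and 21.6 to 311, cover counting error only. In each group some of these libraries share an animal. The sgCebpa/b/d call held under all 12 alternatives and without each of the 19 libraries in turn, with an adjusted p of at most 0.00299 by edgeR or DESeq2. The sgLkb1 call was lost with only these 2 groups in the fit (edgeR adjusted p = 0.0828), with the libraries of 1 animal summed (0.0805), without the 5 libraries that carry no animal number (0.0855), and without sgLkb1 replicate 5 (0.0627).

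Fibroblasts are a known source of Wnt5a in the lung. The study also reports Wnt5a in neoplastic cells, from single-cell RNA of tdTomato-sorted cells in its experiment on Lkb1 restoration. There it was higher in a subpopulation called indeterminate, with weaker AT2 markers, than in AT2-like cells. The summed TPM of 7 fibroblast markers was 5.06 to 49.7 in sgInert, 29.7 to 136 for sgCebpa/b/d and 45.7 to 135 in sgLkb1, and within sgInert it was 5.06 to 6.38 in the MT and 18.02 to 49.7 in the ZR libraries. Of the 6 fibroblast markers tested, Dcn, a matrix proteoglycan, and Col3a1, a fibrillar collagen chain, were called higher in both comparisons. Dcn had log2 fold changes of 2.88 and 2.84 (edgeR adjusted p = 0.00129 and 0.00412) and Col3a1 of 1.52 and 1.70 (edgeR adjusted p = 0.0401 and 0.0435) in sgCebpa/b/d and sgLkb1, while the other 4 were not called. In the same order these had log2 fold changes of 1.46 and 1.27 (Col1a1), 1.47 and 1.71 (Col1a2), 2.49 and 1.84 (Lum) and 0.36 and 0.86 (Pdgfra). All 6 were above 0 in both comparisons, 5 of 6 with an unadjusted p under 0.05 in each, and their medians were 1.50 and 1.70. No marker of the list was at 0 in every library of a virus group, and 1, Lum, was at 0 in the 3 MT libraries of sgInert. Between sgCebpa/b/d and sgLkb1, 0 of 6 fibroblast markers were called by edgeR or DESeq2, and 0 had an unadjusted p under 0.05 in edgeR. Wnt5a was called by neither there (log2 fold change 1.17, edgeR unadjusted p = 0.0371, adjusted p = 0.235). On the CPM scale every sgLkb1 library had less Wnt5a than every sgCebpa/b/d library, as for 2.22% of all genes, while in TPM these groups overlapped. The part of fibroblasts in the Wnt5a differences was not tested.

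**Figure D2:**
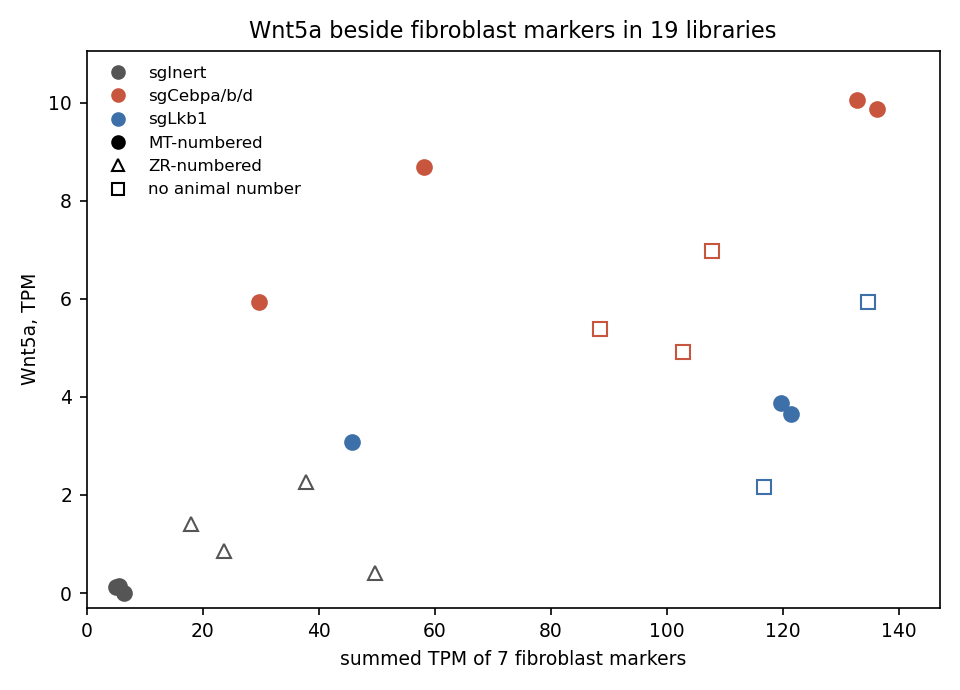
Wnt5a in TPM (y axis) against the summed TPM of 7 fibroblast markers (x axis) in each of the 19 libraries, coloured by virus group, with symbols for the number series in the title. The 3 MT sgInert libraries lie in the lower left corner at 5.06 to 6.38 summed TPM. The 4 ZR sgInert libraries lie at 18.02 to 49.7 summed TPM with 0.40 to 2.27 TPM of Wnt5a. In that range of summed levels, sgCebpa/b/d replicate 2 (29.7) has 5.93 TPM of Wnt5a and sgLkb1 replicate 4 (45.7) has 3.09 TPM. At summed levels above 100 the sgCebpa/b/d libraries lie between 4.92 and 10.1 TPM of Wnt5a and the sgLkb1 libraries between 2.17 and 5.93.

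Other markers moved as well. Over all genes tested, 2.65% were called higher and 2.00% lower in sgCebpa/b/d against sgInert. In sgLkb1 against sgInert these shares were 1.87% and 1.14%. AT1 markers were higher in sgCebpa/b/d than in sgInert (3 of 7 called, Hopx, Pdpn and Akap5, with summed levels of 913 to 1709 against 472 to 733 TPM), and 3 of 7 AT2 markers (Abca3, Etv5 and Lamp3) were called lower. The summed AT2 level was 49940 to 68018 TPM in sgInert. In sgCebpa/b/d it was 53469 to 57786 TPM in the MT libraries and 31333 to 46366 TPM in the 3 with no animal number. Lamp3 was 3333 to 3963 CPM in the former and 1623 to 2169 CPM in the latter, against 4699 to 6818 CPM in sgInert. In sgLkb1 against sgInert the AT2 marker Sftpa1 was called lower (log2 fold change -1.08, SE 0.21, edgeR adjusted p = 0.0031) and 6 of 7 AT2 markers had an unadjusted p under 0.05. No AT1 marker was called there by edgeR or DESeq2 and 3 of 7 had an unadjusted p under 0.05, with a summed level of 814 to 1089 TPM, wholly above sgInert. Of 5 endothelial markers, 4 were called higher in sgCebpa/b/d and 1 in sgLkb1. Their summed level was 6.36 to 16.3 TPM in sgInert, 9.87 to 24.1 TPM in the MT libraries of sgCebpa/b/d and 74.4 to 105 TPM in its 3 libraries with no animal number. In sgLkb1 it was 24.3 to 89.4 TPM, wholly above sgInert, and 4 of the 5 had an unadjusted p under 0.05. Of 4 mesothelial markers 1, Msln, passed the filter and was called higher in sgLkb1. None of the tested immune (4 of 6), club and ciliated (3 of 4) or smooth muscle and pericyte markers (3 of 6) was called by edgeR in any comparison, although 2 immune markers had an unadjusted p under 0.05 against sgInert in each of the 2 comparisons, and 1 smooth muscle or pericyte marker in sgCebpa/b/d, and DESeq2 called 1 immune marker, Ptprc, in sgCebpa/b/d. The part of these cells in the members' differences was not tested.

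Wnt7b went the other way. It had 10 to 45 counts in the sgInert libraries (median 19), 0 to 10 in the sgCebpa/b/d libraries (median 4), and 22, 16, 28, 18 and 15 in the sgLkb1 libraries. On the CPM scale every sgCebpa/b/d library, at 0.00 to 1.69, was below every sgInert library, at 2.65 to 6.98, and below every sgLkb1 library, at 1.77 to 4.25, as held for 2.87% of all genes against sgLkb1. The log2 fold change of sgCebpa/b/d against sgInert was -2.47 (SE 0.53, edgeR adjusted p = 0.00338), and 2.09% of all genes had every sgCebpa/b/d library below every sgInert library. This call held under all 12 alternatives, with log2 fold changes from -2.84 to -1.79, and without each library in turn. Among the sgCebpa/b/d libraries, the 3 with no animal number held 0, 1 and 2 counts and the 4 MT libraries 4 to 10.

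In sgLkb1 the Wnt7b difference from sgInert was -0.80 on the log2 scale (95% interval -1.85 to 0.24, edgeR adjusted p = 0.466). Set directly against sgLkb1, sgCebpa/b/d had a log2 fold change of -1.67 (SE 0.56, edgeR adjusted p = 0.0856), which was not called by edgeR. DESeq2 called it (-1.71, adjusted p = 0.0166), as did edgeR with the number series as a covariate (-1.94, adjusted p = 0.0235).

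Wnt4 and Wnt3a were near the limit of detection. Wnt4, a ligand of epithelial and mesenchymal tissue, had 1 to 9 counts in sgInert, 4 to 32 in sgCebpa/b/d, and 17, 17, 9, 26 and 6 in sgLkb1. All groups overlapped. Its log2 fold change against sgInert was 0.91 (95% interval -0.11 to 1.93, edgeR adjusted p = 0.315) for sgCebpa/b/d and 1.11 (95% interval 0.03 to 2.20, edgeR adjusted p = 0.288) in sgLkb1, so that neither was called. Wnt3a, a canonical ligand, had at most 9 counts in a library and 33 in all, and 9 of the 19 libraries held 0. It did not pass the filter, and its differences were not tested with the other members.

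Read per gene length, the tumors made few Wnt ligand transcripts, and the make-up differed between groups. The summed level of all 19 Wnt ligand genes was 7.30 to 10.1 TPM in sgInert, 14.1 to 19.1 TPM for sgCebpa/b/d and 14.5 to 21.6 TPM in sgLkb1, without overlap between sgInert and the others. Wnt7a, no member but the ligand with the highest median level (5.06 TPM over the 19 libraries), gave 24.9 to 55.0% of the ligand transcripts in sgInert, 25.1 to 44.8% for sgCebpa/b/d and 35.0 to 60.4% in sgLkb1. Wnt5a gave 0.00 to 22.4% in sgInert, 30.3 to 56.9% for sgCebpa/b/d and 10.1 to 30.6% in sgLkb1.

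Wnt7b shared the ligand pool in reverse, with 12.4 to 36.3% in sgInert, 0.00 to 4.30% for sgCebpa/b/d and 5.08 to 12.03% in sgLkb1. These shares depend on one another, since they add up to 100% with the other ligands. Of the 19 ligands 7 were tested and 12 were not, and 4 of the 12 had 0 counts in every library. Wnt7a itself rose in sgLkb1 (log2 fold change 1.11, SE 0.24, edgeR adjusted p = 0.00587) and its difference in sgCebpa/b/d was not called.

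**Figure D3:**
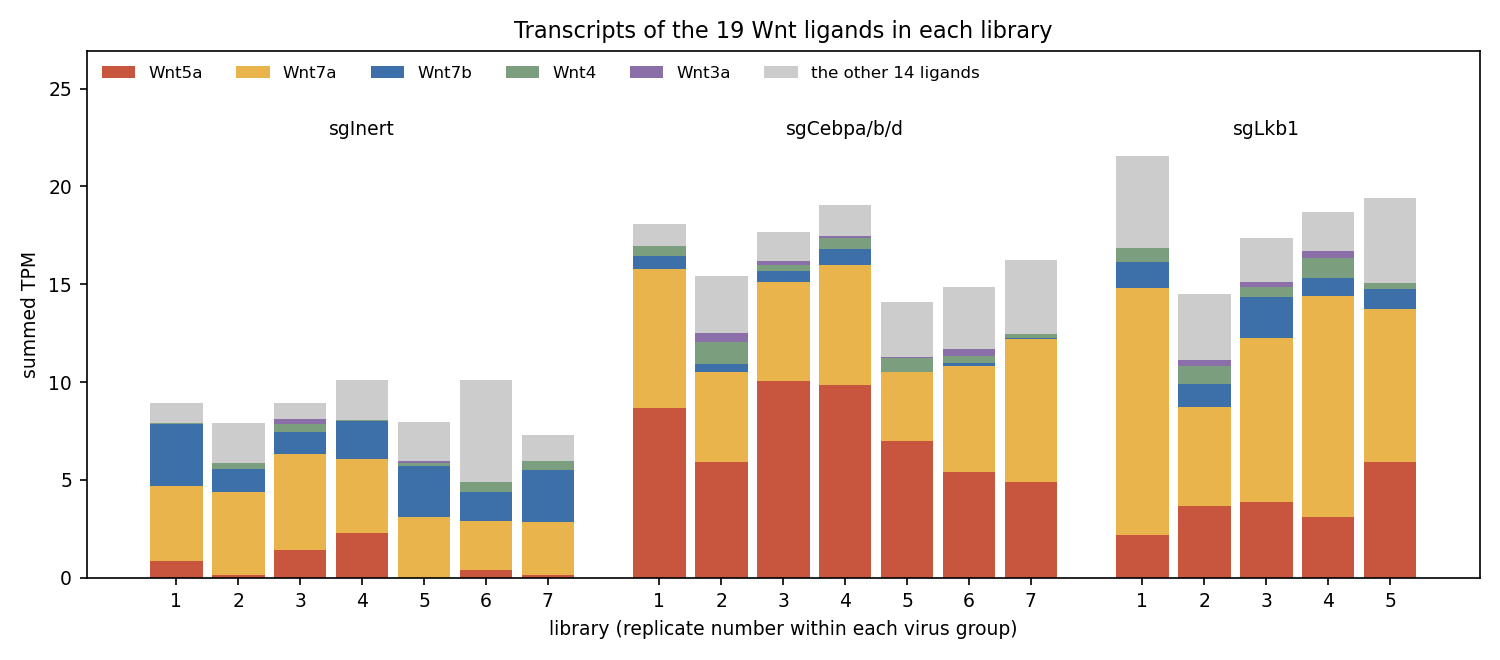
Summed TPM of the 19 Wnt ligand genes (y axis) in each library (x axis, replicate number within each virus group), stacked by gene. The whole bar is 7.30 to 10.1 TPM in sgInert and at least 14.1 TPM in the other libraries, the Wnt5a share is 30.3 to 56.9% in sgCebpa/b/d, and the Wnt7b share is at most 4.30% there.

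Porcn, on the X chromosome, rose in both comparisons. The sgInert libraries held 5 to 41 counts (median 18), the sgCebpa/b/d libraries 34 to 94 (median 49), and the sgLkb1 libraries 53, 99, 80, 89 and 60. On the CPM scale 1 sgInert library, replicate 3 at 10.9 CPM, stood among the other groups, while the other sgInert libraries did not exceed 4.19 CPM, below the lowest values of 6.39 CPM in sgCebpa/b/d and 6.11 CPM in sgLkb1. The log2 fold change against sgInert was 1.33 (SE 0.38, edgeR adjusted p = 0.0258) for sgCebpa/b/d and 1.44 (SE 0.40, edgeR adjusted p = 0.0342) in sgLkb1. The difference between sgCebpa/b/d and sgLkb1 was -0.11 (95% interval -0.88 to 0.66, edgeR adjusted p = 0.918).

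Both Porcn calls lay near the threshold. In sgCebpa/b/d the edgeR adjusted p was 0.0503 with only the 2 groups in the fit, 0.0919 with the libraries of 1 animal summed and 0.0683 without the 5 libraries with no animal number, and it was 0.0528 without sgInert replicate 5 and 0.0574 without sgCebpa/b/d replicate 6. In sgLkb1 the call was lost without any one of 9 libraries (sgInert replicates 1, 4, 5, 6 and 7 and sgLkb1 replicates 2, 3, 4 and 5, edgeR adjusted p 0.0502 to 0.104), and with sex as a covariate (0.0532), with 2 groups (0.0722) and with animals summed (0.147). Under these settings the log2 fold changes were 1.21 to 1.50. Wls, the other secretion gene, was more abundant (median 104 TPM against 9.66 TPM for Porcn) and was called in no comparison.

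Of the receptors, Ror1, a receptor of Wnt5a, was the most abundant member in sgInert and differed least. It had 31.5 to 68.7 CPM in sgInert, 29.4 to 46.8 CPM in sgCebpa/b/d, and 48.7, 27.9, 56.3, 33.6 and 41.2 CPM in sgLkb1. The groups overlapped throughout. The log2 fold change against sgInert was -0.22 (95% interval -0.58 to 0.15, edgeR adjusted p = 0.534) for sgCebpa/b/d and -0.06 (95% interval -0.46 to 0.33, edgeR adjusted p = 0.916) in sgLkb1. Ror2, its paralog, had 0 counts in all 7 sgInert libraries, at most 2 in sgCebpa/b/d and at most 3 in sgLkb1. The count was 0 in 5 of the 7 sgCebpa/b/d and 2 of the 5 sgLkb1 libraries. Each count lay within the 3 that a count of 0 in 1 library allows, a limit that does not take the libraries of a group together. Ror2 did not pass the filter, and its differences were not tested with the other members.

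Lgr4 fell in sgLkb1. It had 9.01 to 27.2 CPM in sgInert (median 11.7), 5.02 to 16.3 CPM in sgCebpa/b/d (median 8.63), and 6.23, 5.80, 5.76, 6.69 and 8.30 CPM in sgLkb1, so that every sgLkb1 library was below every sgInert library, as for 2.00% of all genes. Its log2 fold change was -1.09 (SE 0.30, edgeR adjusted p = 0.0345) in sgLkb1 and -0.60 (SE 0.27, edgeR adjusted p = 0.177) in sgCebpa/b/d, where it was not called. The sgInert mean was raised by replicate 6 at 27.2 CPM, and without it the sgLkb1 difference was -0.82 (edgeR adjusted p = 0.0823). The call was also lost without sgInert replicate 4 or any one of the 5 sgLkb1 libraries (edgeR adjusted p 0.0503 to 0.0885), within the MT libraries (-0.89, edgeR adjusted p = 0.164), without the 4 ZR libraries (-0.78, 0.225), without the 5 libraries with no animal number (-1.19, 0.0803), with the number series as a covariate (-0.63, 0.444), with animals summed (0.0952) and with no filter on low counts (0.0618).

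Lgr5, a stem cell marker and response gene in the gut, had 1 to 39 counts in sgInert, 1 to 17 in sgCebpa/b/d, and 61, 1, 2, 5 and 26 in sgLkb1. Within sgLkb1 the 2 libraries with no animal number held 61 and 26 counts and the 3 MT libraries 1 to 5. The log2 fold change against sgInert was -1.15 (95% interval -2.61 to 0.32, edgeR adjusted p = 0.39) for sgCebpa/b/d and -0.32 (95% interval -1.87 to 1.22, edgeR adjusted p = 0.889) in sgLkb1, and neither was called. The sgLkb1 value depended on the libraries used. The MT libraries, 3 from 2 animals in each of these groups, held 0.157 to 0.492 CPM in sgLkb1 and 1.22 to 3.10 CPM in sgInert. Within the MT libraries the log2 fold change was -2.72 (edgeR adjusted p = 0.0986). Without the 5 libraries with no animal number the difference was -3.08 (edgeR adjusted p = 0.0899), so that it was not called in either case.

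Lgr6, the third receptor of this family and no member, rose in both comparisons, with 0 to 6 counts in sgInert, 4 to 70 in sgCebpa/b/d and 37, 17, 21, 5 and 12 in sgLkb1. Its log2 fold changes were 3.56 (SE 0.67, edgeR adjusted p = 0.0011) and 2.72 (SE 0.70, edgeR adjusted p = 0.0222).

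Axin2, a widely used readout of beta-catenin activity, fell in sgCebpa/b/d. It had 18 to 61 counts in sgInert (median 36), 5 to 40 in sgCebpa/b/d (median 17), and 42, 38, 54, 42 and 19 in sgLkb1. On the CPM scale, 6 of the 7 sgCebpa/b/d libraries were below the lowest sgInert library (3.46 CPM), and replicate 3 at 6.59 CPM was not. Relative to sgInert it changed by -1.33 on the log2 scale (SE 0.36, edgeR adjusted p = 0.0189) for sgCebpa/b/d and -0.45 (95% interval -1.20 to 0.30, edgeR adjusted p = 0.593) in sgLkb1. The call held without each of the 19 libraries in turn (edgeR adjusted p at most 0.0466) but was lost within the MT libraries (-1.17, edgeR adjusted p = 0.216), with the number series as a covariate (-1.15, 0.165), without the 4 ZR libraries (-1.41, 0.0778) and without the 5 libraries with no animal number (-1.10, 0.145).

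Between sgCebpa/b/d and sgLkb1 the Axin2 difference was -0.88 (95% interval -1.64 to -0.12, edgeR adjusted p = 0.218), and it was called without sgCebpa/b/d replicate 3 (-1.25, edgeR adjusted p = 0.0419). The Wnt5a difference between these groups was 1.17 (95% interval 0.14 to 2.20, edgeR adjusted p = 0.235), although on the CPM scale every sgCebpa/b/d library was above every sgLkb1 library, which held for 2.22% of all genes. In TPM the groups overlapped, with sgLkb1 replicate 5 at 5.93 above sgCebpa/b/d replicates 6 and 7 at 5.39 and 4.92. The difference was called with only these 2 groups in the fit (1.15, edgeR adjusted p = 0.00791), within the MT libraries (1.31, 0.0143), without the 4 ZR libraries (1.17, 0.00997) and with the number series as a covariate (1.16, 0.0164).

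**Figure D4:**
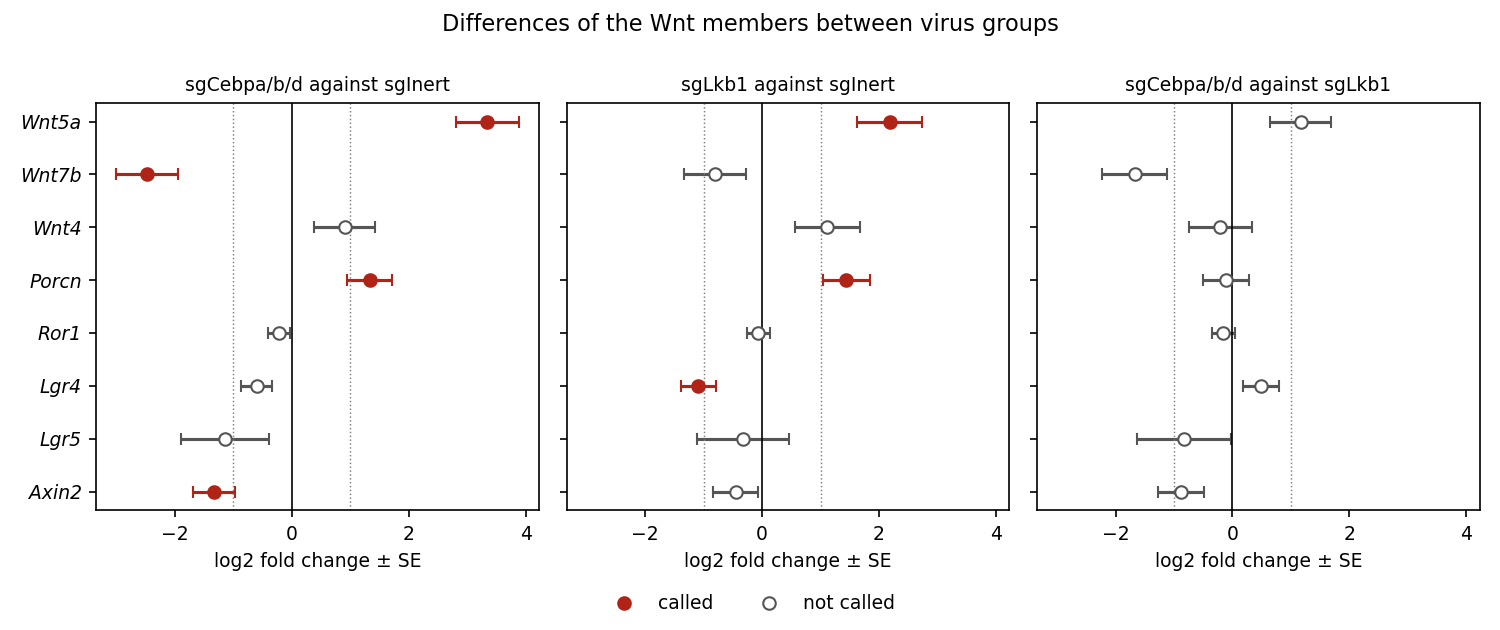
Log2 fold changes ± SE (x axis) of the 8 tested members (y axis) in the 3 comparisons of the edgeR fit, with dotted lines at -1 and 1 and called members filled. Wnt5a and Porcn lie above 1 against sgInert in both comparisons, Wnt7b and Axin2 below -1 in sgCebpa/b/d, Lgr4 below -1 in sgLkb1, and no member is called between sgCebpa/b/d and sgLkb1.

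Per length, the order of the members differed between groups. In sgInert the highest means of log2(TPM + 1) were those of Ror1 (3.39 ± 0.41, SD, n = 7), Lgr4 (2.36 ± 0.48) and Axin2 (2.18 ± 0.47), with Wnt5a at rank 7 of 10 (0.67 ± 0.64). In sgCebpa/b/d they were those of Porcn (3.44 ± 0.55, SD, n = 7), Ror1 (3.24 ± 0.26) and Wnt5a (3.03 ± 0.37), and in sgLkb1 those of Porcn (3.59 ± 0.36, SD, n = 5), Ror1 (3.54 ± 0.37) and Wnt5a (2.20 ± 0.41). Over all 19 libraries the order was Ror1, Porcn, Wnt5a, Lgr4, Axin2, Wnt7b, Lgr5, Wnt4, Wnt3a and Ror2, and of the 9 neighbouring pairs only Axin2 and Wnt7b (0.79 apart) and Wnt4 and Wnt3a (0.37 apart) differed by more than the larger SD of the pair. With a pseudocount of 0.1 TPM in place of 1, Wnt5a fell behind Lgr4 and Axin2 in this order.

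The members lie apart in the genome. On GRCm38 (mm10), Wnt5a lies at chr14:28504750-28527448 on the plus strand, Porcn at chrX:8193848-8206525 on the minus strand, Wnt7b at chr15:85535437-85582473 on the minus strand, Lgr4 at chr2:109917647-110014257 on the plus strand and Axin2 at chr11:108920349-108950783 on the plus strand. Each is annotated as protein-coding. Antisense genes overlap Wnt5a (Gm2670), Wnt7b (AU022754) and Axin2 (Gm11670), and since no strand setting is given in the sources used here, reads of these pairs cannot be told apart.

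RefSeq start sites with a window of 250 bases before and 50 after (GRCm38.p6) were at hand for 6 of the 10 members, among them 2 of the 5 that were called, Axin2 and Lgr4. The windows were searched on both strands for the C/EBP letters TTGCNNAA and their palindrome TTGCGCAA, which is a case of the former, for the TCF/LEF letters CTTTGAT and CTTTGAA, and for the CRE letters TGACGTCA. These occurred in 10.8%, 0.183%, 3.73%, 5.14% and 1.79% of all 32851 windows. The single match was TTGCNNAA in Lgr4, with its first base 47 before the start. The windows of both called members are shown, on the plus strand with the match in capitals, because Lgr4 and Axin2 are the members that fell and for which the letters could be read. The Axin2 window holds none of the 5 patterns.
Lgr4, chr2:109917397-109917696: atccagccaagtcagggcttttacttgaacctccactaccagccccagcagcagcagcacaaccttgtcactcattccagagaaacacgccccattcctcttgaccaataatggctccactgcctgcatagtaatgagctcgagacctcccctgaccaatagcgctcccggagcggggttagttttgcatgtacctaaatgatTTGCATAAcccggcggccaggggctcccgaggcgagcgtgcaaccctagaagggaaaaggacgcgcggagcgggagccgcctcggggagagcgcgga
Axin2, chr11:108920099-108920398: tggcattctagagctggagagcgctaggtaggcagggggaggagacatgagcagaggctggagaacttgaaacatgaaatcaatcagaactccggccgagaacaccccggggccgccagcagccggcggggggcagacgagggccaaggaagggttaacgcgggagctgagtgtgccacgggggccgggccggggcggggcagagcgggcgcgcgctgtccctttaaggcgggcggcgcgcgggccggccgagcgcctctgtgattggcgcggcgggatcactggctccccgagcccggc

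The rest of the pathway was read from a list of 100 genes that includes the members. Of its 70 tested genes, 6 were called higher and 5 lower in sgCebpa/b/d against sgInert, beside 2.65% and 2.00% of all genes. In sgLkb1 against sgInert 8 were called higher and 2 lower, beside 1.87% and 1.14% of all genes. Between sgCebpa/b/d and sgLkb1, 1 was called higher and 2 lower, beside 1.16% and 1.64% of all genes. The median log2 fold change of the 70 was 0.13, 0.05 and -0.02, beside 0.02, -0.01 and 0.03 over all genes tested. Among the 13 tested receptors and co-receptors 0 were called by edgeR or DESeq2 in any comparison, and 2 in each had an unadjusted p under 0.05. In the same order of comparisons, 3251, 2589 and 2557 of all 13986 genes had such a p in edgeR.

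Secreted inhibitors held the largest fold change of the 70 tested genes against sgInert in both groups. Wif1, which binds Wnt ligands outside the cell, had 0 to 5 counts in sgInert, 9 to 95 in sgCebpa/b/d and 27, 27, 29, 18 and 43 in sgLkb1, with log2 fold changes of 4.24 (SE 0.73, edgeR adjusted p = 4.69e-04) and 3.70 (SE 0.76, edgeR adjusted p = 0.0043). Both groups lay wholly above sgInert, which in sgLkb1 held for 2.15% of all genes. Sfrp4, a soluble Frizzled-related protein, had 2 to 42 counts in sgCebpa/b/d against 5, 0, 0, 0 and 1 in sgLkb1 (log2 fold change 4.04, SE 0.90, edgeR adjusted p = 0.00761), and was called against sgInert in neither group. DESeq2 also called Dkk2 and Dkk3 in sgLkb1 against sgInert, and edgeR did not (2.34 and 1.38, edgeR adjusted p = 0.0594 and 0.0835). Of the 6 inhibitors tested, 6 were above 0 in sgCebpa/b/d and 5 in sgLkb1 against sgInert, with medians of 1.65 and 1.68.

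Response genes other than Axin2 were divided. Of the 10 tested in the list, Sp5, a beta-catenin-induced repressor, fell in sgCebpa/b/d beside Axin2 (log2 fold change -2.34, SE 0.54, edgeR adjusted p = 0.00582) with 2 to 44 counts against 12 to 202 in sgInert, and none was called higher. Tcf7, which encodes the TCF1 factor and is itself a response gene, rose in sgLkb1 (1.87, SE 0.50, edgeR adjusted p = 0.0272). Nkd1, the response gene with the highest median level (48.9 TPM), was called in no comparison. The median of the 10 was -0.31 in sgCebpa/b/d and -0.14 in sgLkb1.

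Among nuclear cofactors Pygo1, a partner of BCL9 in the beta-catenin complex, fell in both groups without overlap with sgInert (28.9 to 48.7 CPM in sgInert, 2.56 to 17.4 for sgCebpa/b/d and 3.34 to 11.3 in sgLkb1). Its log2 fold changes were -2.02 (SE 0.35, edgeR adjusted p = 4.98e-04) and -2.50 (SE 0.40, edgeR adjusted p = 5.60e-04). The other TCF/LEF factors and cofactors, apart from Tcf7 in sgLkb1, were not called against sgInert.

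In the planar polarity and non-canonical arm, the formins Daam1 and Daam2, which act below Dishevelled, moved apart in sgCebpa/b/d. Daam1 fell there (32.6 to 67.4 CPM against 99.9 to 199.6 CPM in sgInert, log2 fold change -1.40, SE 0.17, edgeR adjusted p = 6.91e-06) and was also below sgLkb1 (-1.27, SE 0.18, edgeR adjusted p = 8.29e-05). Daam2 rose in sgCebpa/b/d (1.51, SE 0.29, edgeR adjusted p = 0.00114) and in sgLkb1 (1.94, SE 0.30, edgeR adjusted p = 4.15e-04). Prickle1, a core polarity gene, rose in sgCebpa/b/d (1.75, SE 0.52, edgeR adjusted p = 0.035), with 5 to 119 counts against 1 to 17 in sgInert. Replicates 5 and 7 of sgCebpa/b/d, which have no animal number, stood at 19.02 and 11.9 CPM and the other 5 at 1.81 to 4.92 CPM, against at most 3.17 CPM in sgInert, and the call was lost without either of them. Celsr2, a polarity cadherin, rose in sgLkb1 (1.25, SE 0.34, edgeR adjusted p = 0.0291) and fell in sgCebpa/b/d relative to sgLkb1 (-1.39, SE 0.34, edgeR adjusted p = 0.0145).

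Among these genes outside the members, the calls of Sp5, Daam2 and Prickle1 in sgCebpa/b/d, those of Wnt7a, Lgr6 and Tcf7 in sgLkb1 and that of Celsr2 between sgCebpa/b/d and sgLkb1 were lost without the 5 libraries with no animal number. Within the MT libraries Daam1 and Prickle1 were not called in sgCebpa/b/d, nor Wnt7a, Lgr6 and Tcf7 in sgLkb1. Pygo1 and Wif1 were called in both groups under both settings.

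**Figure D5:**
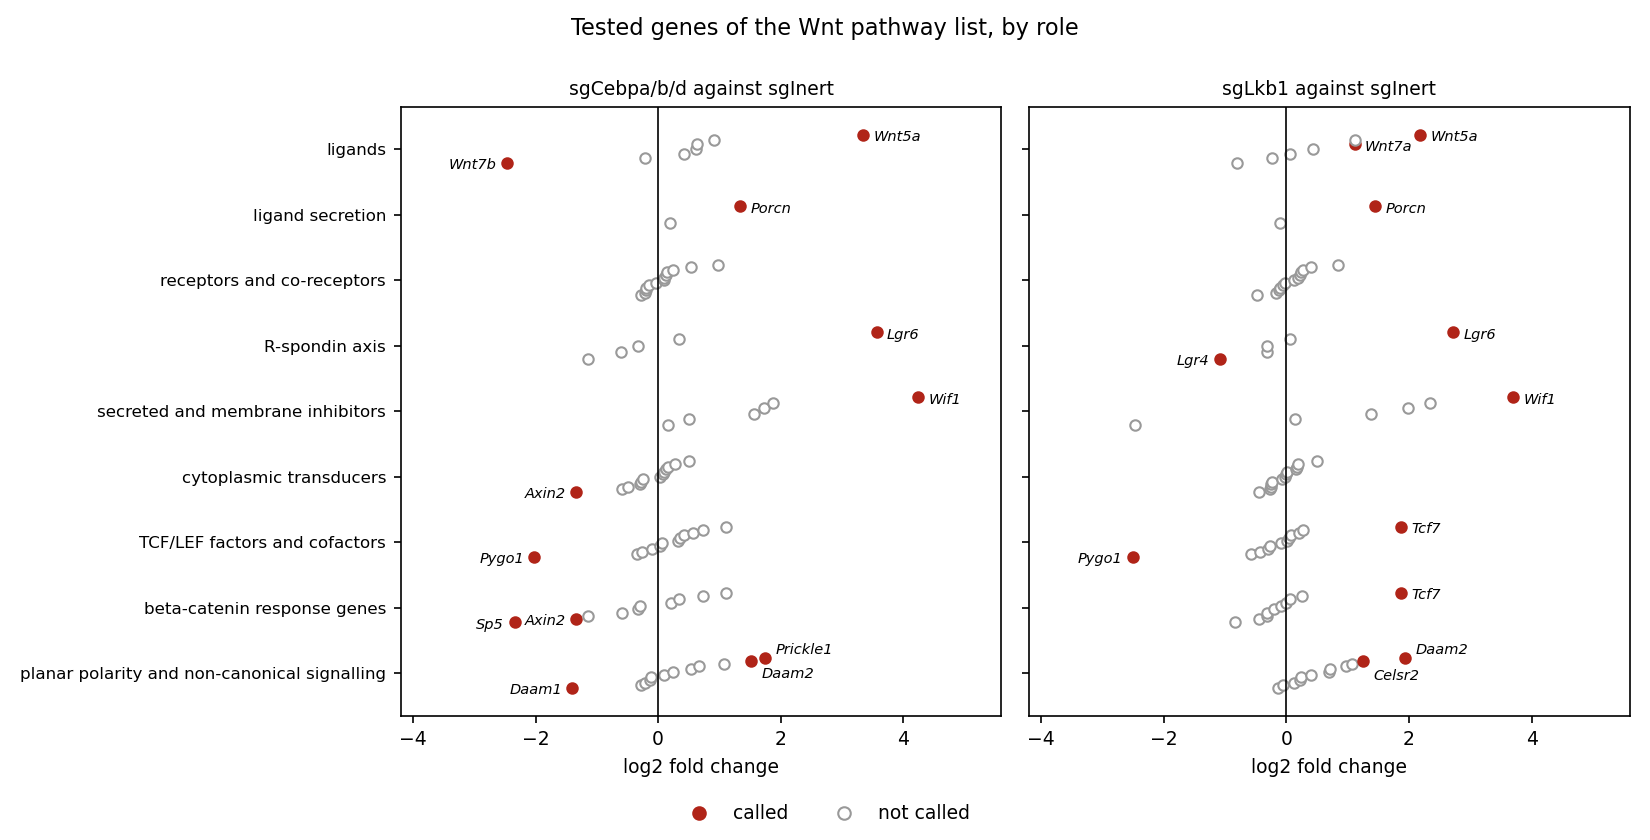
Log2 fold changes against sgInert (x axis) of the 70 tested genes of the Wnt pathway list, by role (y axis, some genes stand under 2 roles), for sgCebpa/b/d and sgLkb1, with called genes filled and named. Wif1 lies furthest to the right in both panels (4.24 and 3.70), and the receptors and co-receptors hold no called gene.

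The genes whose pattern over the 19 libraries was most like that of each called member were found by the root mean square difference of z-scored log2 CPM, where 0 is an identical pattern. For Wnt5a they were Msn (0.40), Krt7 (0.44) and Pfkfb3 (0.44), for Wnt7b Itga9 (0.28), Abca3 (0.31) and Rnase4 (0.33), and for Axin2 Ppp1r14c (0.51), Pomt2 (0.54) and Cd59a (0.55). Lgr4 was most like Ubxn2b (0.47), Rdx (0.54) and Mrs2 (0.58), and Porcn most like Ly6c1 (0.37), Adam12 (0.39) and Sema3e (0.47). Among the members themselves, Wnt7b ranked 4 of all genes in likeness to Axin2 (0.61), and Wnt7b and Axin2 stood 1.78 and 1.74 from Wnt5a. The measure includes the differences between groups and between the number series, and is a description over 19 libraries.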

How the data were processed

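RNA of lineage-depleted cells from lung tumors, which the authors describe as neoplastic cells, was made into libraries by the authors with the Trio RNA-Seq kit. Reads were aligned with STAR 2.6.1d to mm10 and estimated with RSEM 1.2.30. The expected counts deposited are RSEM's estimates for each gene, unnormalized and with fractions. For TPM, deposited beside them, the authors' RSEM run corrected the same estimates for length and scaled them to a fixed total. RSEM divides reads shared by similar genes by a model, so their estimates depend on each other. The authors' tables of DESeq2 1.26.0 results (fold changes and p-values of these comparisons) and of normalized counts were not used.

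Groups, replicate numbers and sexes were read from the labels, and the number series (ZR, MT or none) from the library titles. Apart from the setting with animals summed, the p-values treat all libraries as separate, although some share an animal. They therefore measure the spread between these libraries and not between animals. For libraries with no animal number nothing says whether they came from separate animals. Counts were rounded and summed to 2760722 to 9944131 per library. filterByExpr (count of at least 10, total of at least 15) chose the genes to test. TMM scaling and edgeR 4.0.16 (glmQLFit, glmQLFTest; R 4.3.3) were run in one model over the 19 libraries, without covariates, after a test on simulated counts. Calls took an adjusted p (Benjamini-Hochberg over all 13986 genes) under 0.05 and a log2 fold change beyond 1 in either direction. The 95% intervals of log2 fold changes are 1.96 SE to each side. CPM values are TMM-scaled. DESeq2 1.42.0, its size factors, gene lengths as offsets, no filter, 2 groups per fit, sex, number series, MT libraries only, animals summed, a replicate block, no minimum fold change and each library left out were alternatives. Leaving out the 4 ZR libraries or the 5 without an animal number was added after seeing the data.

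All 10 members are named, and of the pathway list those called in any comparison by edgeR or DESeq2 and the most abundant ligand, secretion gene and response gene. For each called member the 3 most like genes are named. The members and lists were chosen with earlier results of these data known, so their counts are read beside those of all genes. Between replicates of a group (52 pairs) chi-square per gene ranged from 6.91 to 75.2, so no pair lay within sampling noise. Intervals and limits from counts cover counting error only. One allele of the mice, shared by all groups, is not reported here.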

Additional observations from a re-analysis of the deposited data

Results flagged for a closer look

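Over 24 sets, the 8 tested members in each of the 3 groups, 1 value stood apart from its group. Lgr4 in sgInert replicate 6 was 4.78 on the log2 CPM scale, while the other 6 sgInert libraries were 3.22 to 3.84. Its gap to the nearest library was 0.605 of the group's range, above the critical value of 0.568 for 7 libraries. Chance flags about 1 in 20 groups, so 1 of 24 is near what chance gives. It is a ZR library, and the Lgr4 call in sgLkb1 was lost without it.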

How the results depend on the processing

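Of 768 log2 fold changes of members (24 as reported), 686 kept their direction and side of the threshold, 38 lost a call, 7 gained one and 13 changed sign, all 13 in members that were not called. Against the 4, 3 and 0 members called in sgCebpa/b/d against sgInert, sgLkb1 against sgInert and sgCebpa/b/d against sgLkb1, the counts were 4, 1 and 1 with 2 groups per fit, 0 in the second with animals summed, 2 and 1 in the first 2 without the 5 libraries with no animal number, and in the third 2 with the number series as a covariate, 1 in MT libraries, 1 without the ZR libraries and 1 with DESeq2. Leaving out single libraries gave 3 to 4, 0 to 3 and 0 to 1. For the pathway list (11, 10 and 3 called) the counts were 7 and 6 in the first 2 without the libraries with no animal number, 5 in the second with animals summed, and 5 in the third with the number series as a covariate, in MT libraries and with no minimum fold change, and 9 to 12, 6 to 11 and 2 to 4 without single libraries. The cause of these changes was not tested. The number of neighbouring members that differed beyond the larger SD was 2 with either pseudocount, but not the same pairs.

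Signs changed in sgLkb1 against sgInert for Lgr5 without the ZR libraries (0.063), with -1.31 to 0.071 without single libraries, and for Ror1 with animals summed (0.0029), with -0.20 to 0.085 without single libraries. They changed in sgCebpa/b/d against sgLkb1 for Lgr5 in MT libraries (1.79) and without the libraries with no animal number (1.78), with -1.16 to 0.16 without single libraries, and for Porcn with gene lengths as offsets (0.028) and with the replicate block (0.11), with -0.26 to 0.072 without single libraries.

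Same-numbered libraries of different groups did not deviate together (17 pairs, correlations -0.147 to 0.232, median 0.024, 2 over 0.1), and 3 of 19 libraries were most like one of their own number. The numbers therefore do not pair the libraries. With the replicate block 4, 3 and 0 members and 12, 10 and 3 pathway genes were called in the 3 comparisons.

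Depth limits Wnt3a, Ror2, Wnt4, Lgr5, Wnt5a and Wnt7b, each of which reaches down to 0 or 1 counts in some library. The ZR libraries occur in sgInert alone, the libraries with no animal number in the other groups alone, and the sgLkb1 libraries are all female, so that series and sex cannot be fully told apart from the groups.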
